A study of Mus musculus with 30 samples.

Results

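The comparison described here is the genotype difference in the 48 h change: the change between 0 h and 48 h after bilateral olfactory bulbectomy in SR-A mutant mice, minus the same change in wild type mice, across all genes of one array. It was chosen by group and time label and used 12 of the 30 arrays of the series, 3 each of SR-A mutant at 48 h, SR-A mutant at 0 h, wild type at 48 h and wild type at 0 h. All mice were 6 weeks old, and the tissue was microdissected olfactory epithelium. Bulbectomy removes both olfactory bulbs, the brain targets of the sensory axons, and was common to both genotypes. No label states how the SR-A mutation was made, the strain, or whether mice at 0 h had been operated on. Nor is it stated that every array is 1 mouse, and p-values therefore reflect array-to-array spread that may be technical. With 3 arrays a group, that number sets how precise a value can be.

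The olfactory epithelium lines part of the nasal cavity and holds sensory neurons, supporting sustentacular cells, basal stem cells and secretory glands. When the bulbs are removed, mature sensory neurons lose their target and die within days, macrophages enter the tissue, and basal cells replace the lost neurons. SR-A, the class A scavenger receptor encoded by Msr1, is a macrophage surface protein that binds modified lipoproteins, bacterial products and dying cells.

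Msr1 was higher in the arrays labelled mutant. Its brighter probe set gave signals of 469.7, 440.9 and 297.5 in mutant-labelled arrays at 48 h and 543.9, 548.5 and 451.2 at 0 h, against 169.1, 295.1 and 230.6 in wild-type-labelled arrays at 48 h and 161.0, 83.1 and 173.8 at 0 h. The mutant-labelled arrays lay above all wild-type-labelled ones, and the probe set was too dim to be tested. This is the reverse of what a lost transcript gives, and the position of the probes relative to the mutation is not known here, so the targeted gene checks nothing. Groups are accordingly named mutant-labelled and wild-type-labelled, and each direction between genotypes depends on the labels being right. Omp, the defining marker of mature olfactory sensory neurons, checked the tissue, with signals of 23806, 19230.3 and 26773 in mutant-labelled arrays at 48 h and 35807, 36516 and 32772 at 0 h, against 16299.5, 17498 and 17923 in wild-type-labelled arrays at 48 h and 29997, 31605 and 27106 at 0 h. The Gapdh 3' minus 5' control lay between -0.31 and -0.13 in these 12 arrays and the 15 others of the fit. The mutant-labelled 2 h arrays, at 5.59, 0.15 and 1.27, were left out of the fit. The actin 3' minus 5' control moved with the 48 h contrast. It was 1.11, 0.80 and 0.92 in mutant-labelled arrays at 48 h and 0.60, 0.52 and 0.65 at 0 h, without overlap, against 0.89, 0.75 and 0.87 in wild-type-labelled arrays at 48 h and 0.87, 0.68 and 0.56 at 0 h, which overlapped. Its part in the results was not tested.

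Signals are linear MAS5 units, and differences are log2 differences between group means ± standard error. Signals under 113.7, mostly background, were raised to that floor first, so the change of a group with floored arrays is understated, and the genotype difference can come out larger or smaller than without the floor. A negative difference means that the 48 h change was lower in mutant-labelled than in wild-type-labelled arrays. P-values are from limma, two-sided and Benjamini-Hochberg adjusted over 6968 probe sets, with a threshold of 0.05. Where a group had all 3 arrays at the floor, a fold is a lower bound.

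Of 6968 probe sets tested, 291 (4.18%) passed for the genotype difference, 121 (1.74%) higher and 170 (2.44%) lower. With the brightest probe set for each of 5396 genes, 229 (4.24%) passed, 93 (1.72%) higher and 136 (2.52%) lower. The median difference over the 136 lower genes was -0.996, with a median change of -0.28 in mutant-labelled and 0.73 in wild-type-labelled arrays. Over the 93 higher genes the median difference was 0.77, with a median change of 0.39 in mutant-labelled and -0.39 in wild-type-labelled arrays. Over all genes tested these medians were 0.03 for the difference, 0.02 in mutant-labelled and -0.02 in wild-type-labelled arrays. Of the 136 lower genes, 37 also passed for their own 48 h change in mutant-labelled arrays and 108 in wild-type-labelled arrays, and of the 93 higher genes 43 and 46, while 744 (13.8%) and 1021 (18.9%) of all genes did so. By direction, 7.02% of all genes rose and 6.76% fell in mutant-labelled arrays, and 9.9% rose and 9.03% fell in wild-type-labelled arrays. Counts of rises and falls in each gene list below are to be read against these shares. Counted in probe sets, 13.2% changed in mutant-labelled and 18.8% in wild-type-labelled arrays. The gap between genotypes was wider at 48 h than at 0 h in 95 of the 136 lower genes (69.9%) and in 49 of the 93 higher genes (52.7%), against 47.9% of all genes, so for the remainder the mutant-labelled and wild-type-labelled arrays were further apart at 0 h. Across the 5396 genes the change in mutant-labelled arrays and that in wild-type-labelled arrays, which share no array, correlated at Pearson r = 0.41, given as a description since genes are not independent.

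The count of 291 depended on single arrays. It was 131 without mutant-labelled 0 h replicate 3, 167 without wild-type-labelled 0 h replicate 2, 181 without 0 h replicate 3, 181 without 48 h replicate 1 and 176 without 48 h replicate 3 of the same genotype. A fit of only the 12 arrays compared called 77, 16 higher and 61 lower.

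**Figure D1:**
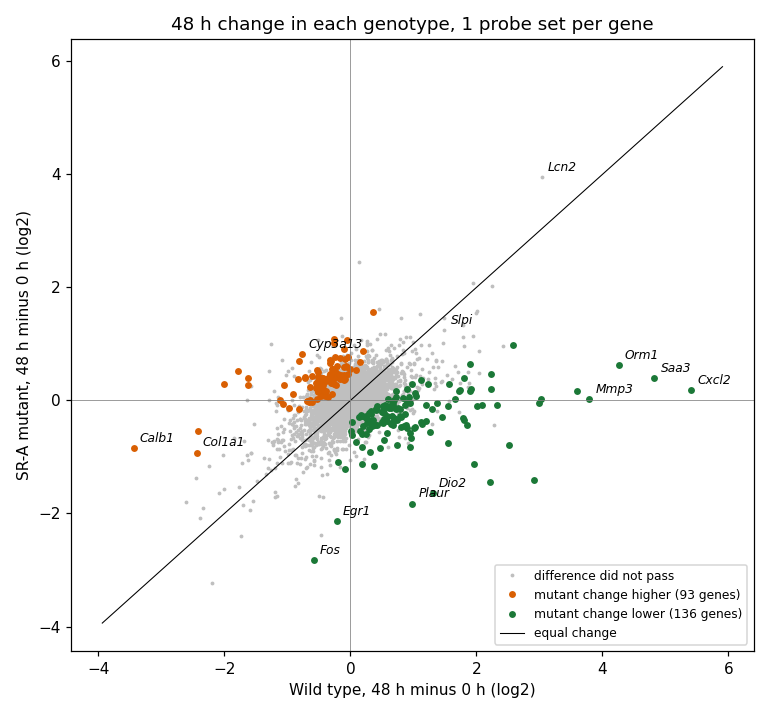
Change between 0 h and 48 h in mutant-labelled arrays (vertical axis, log2) against that in wild-type-labelled arrays (horizontal axis, log2), 1 point per gene, 5396 genes. Orange points are the 93 genes whose change was higher in mutant-labelled arrays, green points the 136 whose change was lower, and the line marks equal change. Cxcl2, Saa3, Orm1 and Mmp3 lie far right near 0 on the vertical axis, Fos and Egr1 lie low, and Lcn2 lies near the line.

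The proximal promoters of the 4 genes with the largest negative differences, all of which have a start site in the RefSeq table, are shown first. Each runs 5' to 3' in the direction of the gene and covers the 250 bases before its start in GRCm38.p6. Capitals mark matches, on either strand, to the NF-kappaB motif GGGANNTTC, the C/EBP motif TTGCNNAA or the AP-1 motif TGANTCA. The 4 genes were chosen after their values were seen, and the NF-kappaB motif was shortened by its last base after the matches of the longer form had been seen, which raised its share among all promoters and among the lower genes.
Cxcl2, chr5:90903649-90903898, plus strand: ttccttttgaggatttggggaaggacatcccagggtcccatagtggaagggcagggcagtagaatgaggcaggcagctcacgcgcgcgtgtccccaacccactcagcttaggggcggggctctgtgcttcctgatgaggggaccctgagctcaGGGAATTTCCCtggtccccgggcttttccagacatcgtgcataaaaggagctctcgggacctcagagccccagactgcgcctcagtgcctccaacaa
Cxcl1, chr5:90890995-90891244, plus strand: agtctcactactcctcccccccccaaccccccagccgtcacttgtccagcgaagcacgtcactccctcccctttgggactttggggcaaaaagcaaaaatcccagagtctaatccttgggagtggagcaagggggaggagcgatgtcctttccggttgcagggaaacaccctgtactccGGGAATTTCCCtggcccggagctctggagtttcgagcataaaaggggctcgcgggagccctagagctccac
Saa3, chr7:46715677-46715926, minus strand: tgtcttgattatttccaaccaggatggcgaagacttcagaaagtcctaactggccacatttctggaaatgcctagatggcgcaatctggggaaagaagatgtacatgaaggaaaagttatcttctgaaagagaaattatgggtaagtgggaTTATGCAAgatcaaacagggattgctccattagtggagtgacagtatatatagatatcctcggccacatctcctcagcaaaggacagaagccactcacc
Mmp3, chr9:7445572-7445821, plus strand: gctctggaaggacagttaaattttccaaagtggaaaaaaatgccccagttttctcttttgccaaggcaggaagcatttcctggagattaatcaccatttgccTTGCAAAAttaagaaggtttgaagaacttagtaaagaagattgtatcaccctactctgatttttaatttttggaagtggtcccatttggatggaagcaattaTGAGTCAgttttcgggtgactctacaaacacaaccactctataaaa

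Cxcl2 and Cxcl1, which lie close together on chromosome 5, each held a pair of NF-kappaB motif matches that overlap on opposite strands, the first starting 97 bases before the start site in Cxcl2 and 71 bases before it in Cxcl1. Saa3 held a C/EBP match 99 bases before its start, and Mmp3 a C/EBP match at 148 bases and an AP-1 match at 46 bases. Among all 27025 promoters of this length in the table, 3.17% held the NF-kappaB motif, 9.55% the C/EBP motif and 6.87% the AP-1 motif. Of the lower genes, 109 had a promoter in the table, and the motifs were in 8 (7.34%), 13 (11.9%) and 16 (14.7%) of them. Of the higher genes, 72 had one, with 0, 12 (16.7%) and 4 (5.56%). The 12 genes with the largest negative differences had 9 promoters, with 2 (22.2%), 3 (33.3%) and 2 (22.2%). The 12 with the largest positive differences also had 9, with 0, 3 (33.3%) and 2 (22.2%). A match is a description of the letters and does not show that a factor binds there. Orm1, Krt6a, Ccl2, Calb1, Col1a1 and Gpd1 had no promoter in the table.

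The chemokines, secreted proteins that draw leukocytes into tissue, held the largest difference. Cxcl2, which attracts neutrophils, gave 74.9, 108.9 and 204.4 in mutant-labelled arrays at 48 h and 138.7, 58.7 and 82.2 at 0 h, against 5200.0, 3463 and 7909 in wild-type-labelled arrays at 48 h and 101.3, 144.9 and 75.4 at 0 h. Only the wild-type-labelled arrays at 48 h stood above the rest, with no overlap, and their mean was at least 42.4-fold above that at 0 h, where 2 of 3 arrays were at the floor. The genotype difference was -5.22 ± 0.66 (adjusted p = 8.22e-05). Cxcl1, which acts on the same neutrophil receptor, gave 55.0, 383.5 and 240.4 in mutant-labelled arrays at 48 h and 1127, 382.9 and 454.9 at 0 h, against 3542, 4771 and 2535 in wild-type-labelled arrays at 48 h and 664.2, 406.2 and 372.2 at 0 h. Its difference was -4.32 ± 0.71 (adjusted p = 0.00144), and -4.02 on its other probe set. In mutant-labelled arrays 2 of the 3 signals at 48 h lay below all those at 0 h, a change of -1.41 (adjusted p = 0.0665).

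Ccl2, which attracts monocytes, gave 118.6, 179.9 and 155.2 in mutant-labelled arrays at 48 h and 238.8, 56.3 and 111.3 at 0 h, against 991.6, 853.7 and 926.3 in wild-type-labelled arrays at 48 h and 19.1, 81.2 and 16.6 at 0 h. All 3 wild-type-labelled arrays were at the floor at 0 h, so the rise in the mean was at least 8.11-fold, and the difference of Ccl2 was -2.99. Testing asked for a signal above 572 in 3 or more arrays. Apart from the wild-type-labelled 48 h arrays, only 1028.3 in mutant-labelled and 778.4 in wild-type-labelled arrays, both at 8 h, exceeded it in the fit. Floored arrays also remove spread. No p is therefore given, although Ccl2 is counted as called. Of 23 chemokine genes on the array 8 were tested, and these 3 were lower, against 2.52% of all genes. The list rose in 1 case in mutant-labelled and in 5 in wild-type-labelled arrays, with median changes of 0.12 and 1.83. The member that rose in mutant-labelled arrays was Ccl9, a macrophage-attracting chemokine, at 1.33 against 1.79 in wild-type-labelled arrays, a difference of -0.46 that did not pass (adjusted p = 0.447).

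The same 3 chemokines were also measured at 8 h and 16 h. At 8 h Cxcl2 gave 625.8, 281.5 and 467.6 in mutant-labelled arrays, against 299.9, 266.9 and 923.2 in wild-type-labelled arrays, so the groups overlapped and both stood above their 0 h level. Its log2 gap, mutant minus wild type, was -0.02 at 0 h, 0.05 at 8 h, -1.02 at 16 h and -5.24 at 48 h. Ccl2 had gaps of 0.36, -0.03, -0.98 and -2.63, while Cxcl1 had gaps of 0.32, 0.43, 0.40 and -4.00. These gaps at 8 h and 16 h are given as values and were not tested.

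**Figure D2:**
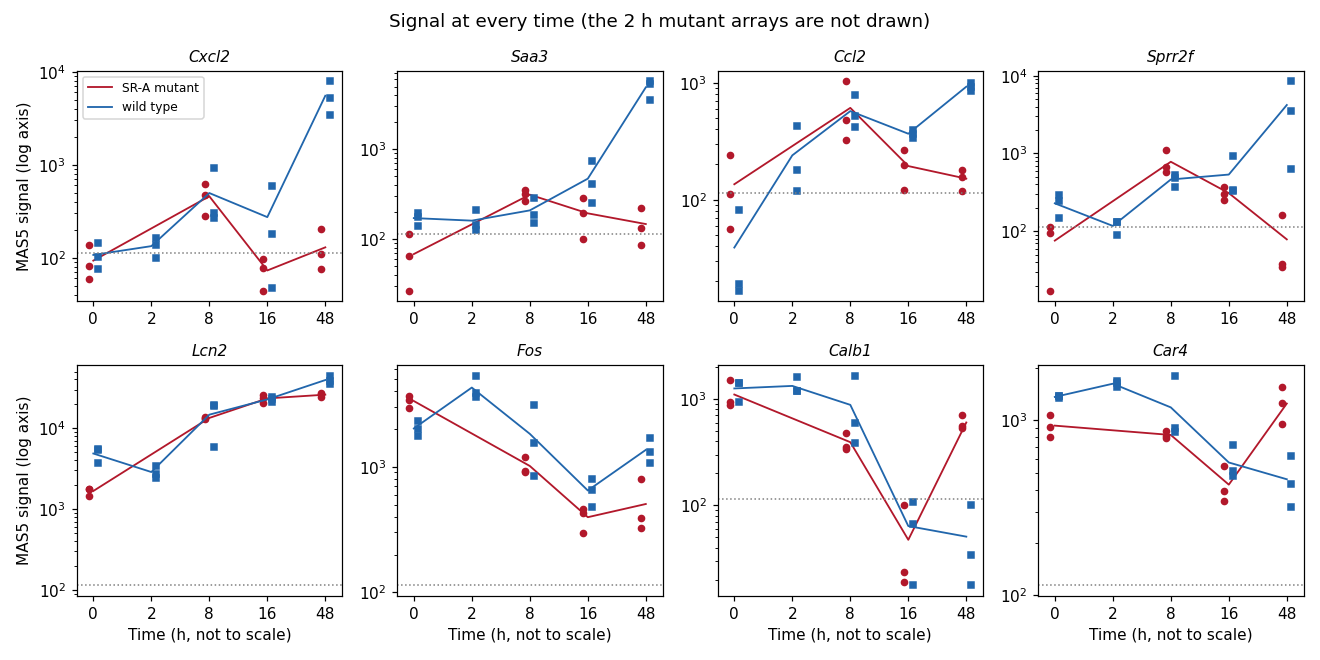
MAS5 signal (log axis) of 8 genes at each time in mutant-labelled arrays (red circles) and wild-type-labelled arrays (blue squares), with lines through group means and the floor of 113.7 dotted; times are not to scale and the mutant-labelled 2 h arrays are not drawn. Cxcl2, Saa3 and Ccl2 separate by genotype at 48 h after overlapping at 8 h, Sprr2f is higher in mutant-labelled arrays at 8 h and lower at 48 h, Lcn2 rises in both, and Calb1 and Car4 are low in both at 16 h and recover only in mutant-labelled arrays at 48 h.

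Among cytokines and their receptors, 6 of 16 tested genes were lower, against 2.52% of all genes, and the list's median difference was -0.78. It rose in 2 cases in mutant-labelled and 7 in wild-type-labelled arrays. Il1b, the main inflammatory form of interleukin 1, gave 56.1, 318.9 and 128.9 in mutant-labelled arrays at 48 h and 379.7, 285.9 and 219.7 at 0 h, against 1281, 1028 and 1970.0 in wild-type-labelled arrays at 48 h and 204.0, 285.9 and 239.5 at 0 h. Its mutant-labelled arrays overlapped between times, with 1 at the floor at 48 h, and the wild-type-labelled 48 h arrays lay above all others. Its difference was -3.30 ± 0.57 (adjusted p = 0.00231). Il6, which drives the acute phase response, gave 7.2, 8.7 and 136.7 in mutant-labelled arrays at 48 h and 291.5, 155.3 and 189.5 at 0 h, against 788.4, 1526 and 1754 in wild-type-labelled arrays at 48 h and 576.8, 334.1 and 441.5 at 0 h, with wild-type-labelled arrays higher than mutant-labelled arrays at both times and the groups apart. Its difference was -2.30 ± 0.48 (adjusted p = 0.0105).

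Il1rn, the antagonist that blocks the interleukin 1 receptor, gave 41.0, 49.2 and 56.3 in mutant-labelled arrays at 48 h and 134.6, 57.7 and 54.3 at 0 h, against 760.7, 614.9 and 720.7 in wild-type-labelled arrays at 48 h and 97.9, 102.1 and 206.5 at 0 h. All 3 mutant-labelled arrays at 48 h were at the floor, as were 2 of 3 at 0 h, and the difference was -2.41. Among the arrays of the fit only the wild-type-labelled 48 h arrays exceeded the filter signal of 572, and floored arrays remove spread. No p is therefore given, although Il1rn is counted as called in the cytokine and acute phase lists. Il1r2, the decoy receptor for interleukin 1, differed by -2.28 ± 0.62 (adjusted p = 0.0405), and by -2.00 on its other probe set (adjusted p = 0.0158). The first of these did not pass in 12 of the 22 alternative fits. Socs3, the feedback inhibitor of interleukin 6 signalling, differed by -1.48 ± 0.34 (adjusted p = 0.0158), and Il13ra1, a receptor chain for interleukins 4 and 13, by -0.76 ± 0.21 (adjusted p = 0.0385).

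Acute phase genes encode proteins made in quantity during inflammation. Of 17 tested, 8 were lower, against 2.52% of all genes, and the list's median difference was -1.54. In mutant-labelled arrays 4 rose and 2 fell, with a median change of 0.39, while 13 rose in wild-type-labelled arrays, with a median of 1.92. Saa3, a serum amyloid A made outside the liver, gave 85.4, 131.3 and 223.8 in mutant-labelled arrays at 48 h and 113.1, 64.5 and 26.4 at 0 h, against 5396, 5732 and 3575 in wild-type-labelled arrays at 48 h and 196.4, 138.9 and 178.1 at 0 h. The wild-type-labelled 48 h arrays stood far above the rest, and the difference was -4.43. Orm1, a plasma glycoprotein, gave 88.6, 190.8 and 367.9 in mutant-labelled arrays at 48 h and 68.3, 114.4 and 166.2 at 0 h, against 3025, 3043 and 2482 in wild-type-labelled arrays at 48 h and 252.7, 50.7 and 69.6 at 0 h, with a difference of -3.63. With the floor at the 10th percentile the Saa3 difference was -3.59. Few arrays of the fit exceeded the filter signal of 572 in these 2 genes. Apart from the wild-type-labelled 48 h arrays, only 1 at 16 h in wild-type-labelled arrays did so, at 743.1 for Saa3 and 678.6 for Orm1. Within the fit, both genes thus reached the 3 arrays that the filter asks for through the wild-type-labelled 48 h arrays. Floored arrays also remove spread. No p is therefore given for Saa3 or Orm1, although both are counted as called.

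The copper-carrying plasma protein Cp differed by -1.71 ± 0.37 (adjusted p = 0.0128). S100a8 gave 2368, 4756 and 4344 in mutant-labelled arrays at 48 h and 3369.5, 5698 and 2990.5 at 0 h, against 17539, 10282 and 15394 in wild-type-labelled arrays at 48 h and 3198, 5741 and 1962 at 0 h, and S100a9 gave 1491, 2391 and 2468 in mutant-labelled arrays at 48 h and 2076, 3506 and 1475 at 0 h, against 10568, 5662 and 11046 in wild-type-labelled arrays at 48 h and 2671, 3458 and 1101 at 0 h. These are the 2 subunits of calprotectin, and in both the wild-type-labelled 48 h arrays alone stood above every other group. Their differences were -2.17 ± 0.51 (adjusted p = 0.0183) and -2.10 ± 0.54 (adjusted p = 0.0305). S100a8 did not pass in 2 of the 22 alternative fits and S100a9 in 7.

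In the same list Lcn2 rose in both genotypes. This iron-siderophore-binding protein gave 27508, 24154 and 26081 in mutant-labelled arrays at 48 h and 1763, 1784 and 1464 at 0 h, against 44402, 34958 and 38509 in wild-type-labelled arrays at 48 h and 5422, 3686 and 5459 at 0 h, with a rise of 3.96 in mutant-labelled and 3.03 in wild-type-labelled arrays. The difference of 0.93 ± 0.40 (adjusted p = 0.196) did not pass, and mutant-labelled arrays were lower at both times. The protease inhibitors Slpi and Serpina3n also rose in both. Slpi rose by 1.24 in mutant-labelled and 1.49 in wild-type-labelled arrays, and by 3.49 and 3.40 on its other probe set. Serpina3n rose by 2.08 and 1.95. Their genotype differences, -0.25 ± 0.23 and 0.13 ± 0.37, did not pass (adjusted p = 0.572 and 0.88).

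The levels of neutrophil and macrophage markers stand beside these results. The summed signal of 17 neutrophil markers was 66387 to 88657 in mutant-labelled arrays at 48 h and 44370 to 48063 at 0 h, against 92387 to 126731 in wild-type-labelled arrays at 48 h and 48673 to 56227 at 0 h. That list holds Lcn2, S100a8 and S100a9, which are also acute phase genes. Of its 9 tested genes 3 were lower, S100a8, S100a9 and Il1r2, against 2.52% of all genes, and the list's median difference was 0.15. The granule genes Camp, Ngp and Ltf and the receptor Csf3r differed by 1.17, 0.18, 0.15 and 0.54, none past the threshold (adjusted p = 0.373, 0.952, 0.835 and 0.294).

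The summed signal of 29 macrophage markers was 35021 to 43936 in mutant-labelled arrays at 48 h and 32315 to 42399 at 0 h, against 50335 to 50963 in wild-type-labelled arrays at 48 h and 28080 to 32470 at 0 h. The groups overlapped between times in mutant-labelled arrays and not in wild-type-labelled arrays. Of 17 tested, 2 rose in mutant-labelled and 9 in wild-type-labelled arrays, against 7.02% and 9.9% of all genes. By genotype difference 1 was lower, against 2.52% of all genes. It was Lgals3, the galactose-binding lectin galectin-3, at -1.55 ± 0.40 (adjusted p = 0.0304), which did not pass in 9 of the 22 alternative fits. Marco and Fcer1g were at the floor in all 12 arrays. Cd68, the lysosomal macrophage marker, rose in both, by 0.64 in mutant-labelled and 0.81 in wild-type-labelled arrays, with a difference of -0.16 ± 0.22 (adjusted p = 0.722) that did not pass. Fewer cells of a type and less RNA per cell cannot be told apart in these bulk samples, and the part of leukocyte content in the results above was not tested.

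Lilr4b, an inhibitory receptor of myeloid cells, gave 414.4, 477.6 and 471.9 in mutant-labelled arrays at 48 h and 408.6, 412.7 and 357.7 at 0 h, against 2949, 2211 and 3759 in wild-type-labelled arrays at 48 h and 761.0, 464.5 and 672.3 at 0 h. Cd53, a tetraspanin of leukocytes, gave 930.5, 922.7 and 745.7 in mutant-labelled arrays at 48 h and 951.7, 983.5 and 827.4 at 0 h, against 1684, 1352 and 1476 in wild-type-labelled arrays at 48 h and 506.5, 511.2 and 523.9 at 0 h. Both were near level across times in mutant-labelled arrays and rose in wild-type-labelled arrays without overlap. Their differences were -2.02 ± 0.29 (adjusted p = 0.000367) and -1.64 ± 0.27 (adjusted p = 0.00146).

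**Figure D3:**
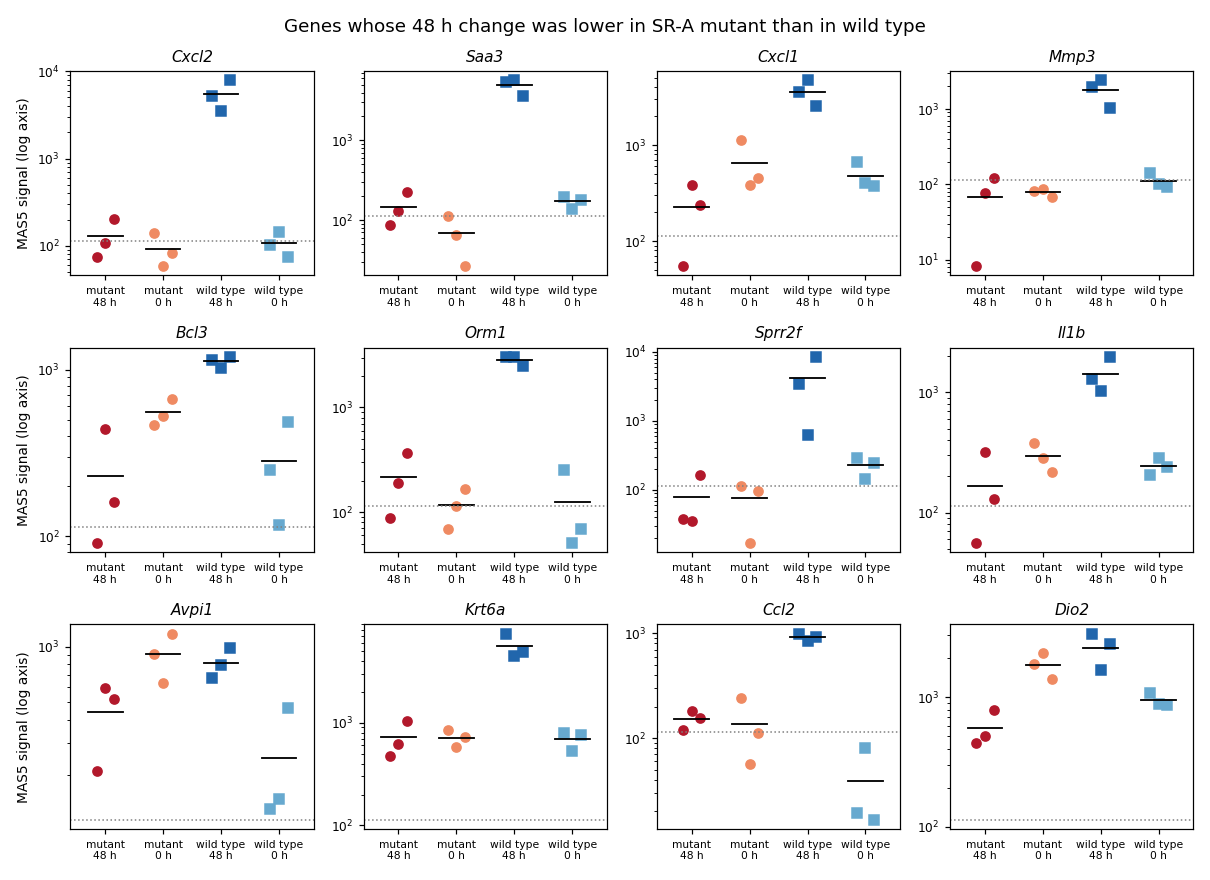
MAS5 signal (log axis) in each array for the 12 genes with the largest negative genotype difference, with bars at group means and the floor of 113.7 dotted. Circles are mutant-labelled arrays at 48 h and 0 h, squares wild-type-labelled arrays at 48 h and 0 h. In Cxcl2, Saa3, Mmp3, Orm1 and Krt6a only the wild-type-labelled 48 h arrays stand high, whereas in Avpi1, Bcl3 and Dio2 the mutant-labelled 0 h arrays also lie above the wild-type-labelled 0 h arrays on average.

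Genes of stressed and cornifying epithelium formed the list with the most lower members, 11 of 21 tested against 2.52% of all genes, with a median difference of -1.28. In mutant-labelled arrays 2 rose and 3 fell, with a median change near 0, and in wild-type-labelled arrays 16 rose, with a median of 1.14. Krt6a, a keratin induced in wounded epithelium, gave 477.4, 625.8 and 1048 in mutant-labelled arrays at 48 h and 838.5, 575.1 and 719.3 at 0 h, against 7312, 4478 and 4894 in wild-type-labelled arrays at 48 h and 792.9, 530.5 and 762.6 at 0 h. Its difference was -3.04 ± 0.70 (adjusted p = 0.0168), and -3.35 on its other probe set (adjusted p = 0.0597). Sprr2f, a cornified envelope precursor, gave 38.2, 35.0 and 162.7 in mutant-labelled arrays at 48 h and 114.7, 17.1 and 95.6 at 0 h, against 3474, 636.2 and 8479 in wild-type-labelled arrays at 48 h and 292.6, 146.0 and 246.9 at 0 h, with wild-type-labelled 48 h arrays that were all high but far apart.

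The difference for Sprr2f was -3.43 ± 0.79 (adjusted p = 0.0169). It did not pass without wild-type-labelled 0 h replicate 2, and its probe set may also match other members of the near-identical Sprr2 family, as that of Krt6a may match Krt6b. Emp1, an epithelial membrane protein, fell by 0.66 in mutant-labelled arrays and rose by 0.97 in wild-type-labelled arrays, with a difference of -1.63 ± 0.24 (adjusted p = 0.000412). Anxa1, an anti-inflammatory annexin, differed by -1.28 ± 0.23 (adjusted p = 0.00351). Anxa3, another annexin, differed by -1.56 ± 0.38 (adjusted p = 0.024), and Sfn, a keratinocyte 14-3-3 protein, by -1.32 ± 0.30 (adjusted p = 0.0158). Sat1, which degrades polyamines, S100a10 and S100a6 were lower as well, at -1.29, -0.88 and -0.80. Lgals3 and Plaur, described with the macrophage markers and the proteases, complete the 11.

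Markers of horizontal basal cells, the reserve stem cells of this epithelium, showed 0 of 9 called in limma for the difference, against 4.24% of all genes. At an unadjusted p under 0.05 there was 1, against 19.6% of all genes. Krt5, Krt14 and Krt15, their defining keratins, were at the floor in all 12 arrays.

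Among matrix proteases and their regulators, 2 of 12 tested genes were lower, against 2.52% of all genes. Mmp3, the protease stromelysin, gave 8.3, 76.6 and 120.7 in mutant-labelled arrays at 48 h and 82.2, 88.2 and 67.3 at 0 h, against 1935, 2417 and 1036 in wild-type-labelled arrays at 48 h and 141.4, 100.6 and 92.1 at 0 h. All 3 mutant-labelled arrays were at the floor at 0 h and 2 of 3 at 48 h, and the mean of the wild-type-labelled 48 h arrays was at least 13.8-fold above that at 0 h, where 2 of 3 were at the floor. The difference was -3.76. Among the arrays of the fit only the wild-type-labelled 48 h arrays exceeded the filter signal of 572, and floored arrays remove spread. No p is therefore given, although Mmp3 is counted among the called genes. Plaur, the receptor that localises the protease urokinase, gave 154.0, 117.8 and 96.3 in mutant-labelled arrays at 48 h and 555.3, 374.3 and 441.1 at 0 h, against 916.2, 656.1 and 1139 in wild-type-labelled arrays at 48 h and 559.6, 360.6 and 438.5 at 0 h. Its signals at 0 h overlapped, and at 48 h mutant-labelled arrays lay below and wild-type-labelled arrays above them, for a difference of -2.81 ± 0.34 (adjusted p = 5.76e-05).

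Transcription regulators were among the lower genes too. Bcl3, a nuclear member of the I-kappaB family, gave 90.9, 436.9 and 160.6 in mutant-labelled arrays at 48 h and 464.4, 529.1 and 664.3 at 0 h, against 1146, 1017 and 1191 in wild-type-labelled arrays at 48 h and 249.2, 115.8 and 486.0 at 0 h. At 0 h its mutant-labelled arrays were on average 2.27-fold above the wild-type-labelled arrays, and its difference was -3.66 ± 0.71 (adjusted p = 0.0057). Cebpb, a factor that activates acute phase and cytokine genes, gave 4448, 4576 and 4758 in mutant-labelled arrays at 48 h and 8101, 6899 and 7299.8 at 0 h, against 6489.9, 6766 and 6148 in wild-type-labelled arrays at 48 h and 4289.7, 3979.8 and 5153 at 0 h. The arrays within each group were close together, and Cebpb fell by 0.69 in mutant-labelled arrays and rose by 0.54 in wild-type-labelled arrays, a difference of -1.23 ± 0.14 (adjusted p = 3.94e-05). Cebpd, its close relative, fell by 1.16 in mutant-labelled arrays and differed by -1.54 ± 0.39 (adjusted p = 0.029). In the NF-kappaB pathway list Bcl3 and the apoptosis inhibitor Birc3 were lower among 18 tested, against 2.52% of all genes, Birc3 at -1.40 ± 0.39 (adjusted p = 0.0448). Birc3 did not pass in 14 of the 22 alternative fits and Cebpd in 8.

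Immediate early genes, which are transcribed within minutes of a stimulus, fell in 11 of 25 cases in mutant-labelled and 5 in wild-type-labelled arrays, against 6.76% and 9.03% of all genes, and 2 rose in each. By genotype difference 4 were lower, against 2.52% of all genes. Fos, a component of the AP-1 factor, gave 327.5, 798.9 and 389.5 in mutant-labelled arrays at 48 h and 3639, 3419 and 2946 at 0 h, against 1318, 1076 and 1693 in wild-type-labelled arrays at 48 h and 1754, 2296 and 2002 at 0 h. At 0 h the mutant-labelled arrays lay above the wild-type-labelled ones and at 48 h below them, without overlap either time, and the difference was -2.25 ± 0.49 (adjusted p = 0.0128). Egr1, a zinc finger factor, gave 593.4, 555.8 and 413.0 in mutant-labelled arrays at 48 h and 2708, 2207 and 1941 at 0 h, against 1086, 771.3 and 1833 in wild-type-labelled arrays at 48 h and 1278, 1394 and 1345 at 0 h, with the same crossing and a difference of -1.92 ± 0.39 (adjusted p = 0.00876). Ier2 differed by -1.12 ± 0.14 (adjusted p = 8.22e-05), and Ier3, a regulator of apoptosis, which rose by 1.26 in wild-type-labelled arrays, by -1.82 ± 0.35 (adjusted p = 0.0057). Nr4a1, a nuclear receptor induced by activity, fell in both genotypes, with changes of -3.23 in mutant-labelled and -2.20 in wild-type-labelled arrays, and its difference of -1.03 ± 0.58 (adjusted p = 0.334) did not pass.

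Dio2, the deiodinase that makes active thyroid hormone, gave 447.3, 505.2 and 793.3 in mutant-labelled arrays at 48 h and 1794, 2179.6 and 1379.8 at 0 h, against 3089, 1612 and 2552 in wild-type-labelled arrays at 48 h and 1085, 883.5 and 868.1 at 0 h. It fell by 1.64 in mutant-labelled arrays and rose by 1.31 in wild-type-labelled arrays, a difference of -2.95 ± 0.38 (adjusted p = 9.95e-05). Avpi1, a small protein first known as vasopressin-induced, gave 209.6, 593.1 and 520.3 in mutant-labelled arrays at 48 h and 908.2, 636.3 and 1177 at 0 h, against 672.6, 798.8 and 981.4 in wild-type-labelled arrays at 48 h and 130.2, 147.0 and 462.3 at 0 h, and differed by -3.10 ± 0.56 (adjusted p = 0.00339). At 0 h its mutant-labelled arrays were on average 4.25-fold above the wild-type-labelled arrays and at 48 h lay below them on average. Gpx2, an epithelial glutathione peroxidase, differed by -2.09 ± 0.33 (adjusted p = 0.000857). Lox, which crosslinks collagen, fell by 0.58 in mutant-labelled arrays, rose by 0.94 in wild-type-labelled arrays and differed by -1.52 ± 0.26 (adjusted p = 0.00231).

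Chaperones of the endoplasmic reticulum, which fold secreted proteins, showed smaller differences with little spread. Hspa5, the main luminal chaperone, gave 10623, 11673 and 10681 in mutant-labelled arrays at 48 h and 13981, 14465 and 14069 at 0 h, against 15233, 14565 and 15292 in wild-type-labelled arrays at 48 h and 12096, 12601 and 11686 at 0 h. It fell by 0.37 in mutant-labelled arrays and rose by 0.31 in wild-type-labelled arrays, a difference of -0.68 ± 0.13 (adjusted p = 0.00683). Pdia3, a protein disulphide isomerase, and Dnajb11, a co-chaperone of Hspa5, moved likewise, with differences of -0.84 ± 0.20 (adjusted p = 0.0185) and -0.72 ± 0.15 (adjusted p = 0.00831). Xbp1, a factor of the unfolded protein response, was level in mutant-labelled arrays and rose by 0.92 in wild-type-labelled arrays, a difference of -0.86 ± 0.22 (adjusted p = 0.0279). Of the 18 genes tested in that list, Xbp1, Pdia3 and Hspa5 were lower and 1 was higher, against 2.52% and 1.72% of all genes. The higher one was Canx, a membrane chaperone, at 0.77 ± 0.21 (adjusted p = 0.0399). It did not pass in 10 of the 22 alternative fits, and its other probe set gave 0.11. Dnajb11 is not in the list.

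Interferon-stimulated genes rose in 4 of 23 cases in mutant-labelled arrays, where 2 fell, and in 13 in wild-type-labelled arrays. By genotype difference 2 were lower, the GTPase Gbp2 at -1.75 ± 0.48 (adjusted p = 0.0421) and the membrane protein Ifitm3 at -0.71 ± 0.16 (adjusted p = 0.0164). Among all genes 2.52% were lower. Gbp2 did not pass in 13 of the 22 alternative fits.

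Genes with a higher 48 h change in mutant-labelled arrays were led by Calb1, a calcium-binding protein of some neurons. Calb1 gave 538.1, 710.7 and 552.8 in mutant-labelled arrays at 48 h and 882.4, 1492 and 926.6 at 0 h, against 17.6, 100.2 and 34.1 in wild-type-labelled arrays at 48 h and 938.4, 1412 and 1415 at 0 h. All 3 wild-type-labelled arrays were at the floor at 48 h, and the mean 0 h signal was at least 10.8-fold higher, while mutant-labelled arrays stayed well above it. The difference was 2.60 ± 0.45 (adjusted p = 0.00231). At 16 h it was at the floor in all arrays of both genotypes, with 19.0, 23.3 and 99.5 in mutant-labelled arrays against 106.5, 17.7 and 66.8 in wild-type-labelled arrays.

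The related Calb2, calretinin, gave 9799, 7237 and 7679.7 in mutant-labelled arrays at 48 h and 7195, 6614 and 5516 at 0 h, against 7358, 7706 and 7492 in wild-type-labelled arrays at 48 h and 9049.7, 11017 and 9604 at 0 h, and Syn2, a synaptic vesicle phosphoprotein, gave 876.9, 893.1 and 1139 in mutant-labelled arrays at 48 h and 966.4, 948.9 and 915.0 at 0 h, against 809.7, 750.0 and 812.3 in wild-type-labelled arrays at 48 h and 1229, 1062 and 1152 at 0 h. Both fell in wild-type-labelled arrays, and their differences were 0.74 ± 0.17 (adjusted p = 0.0148) and 0.57 ± 0.15 (adjusted p = 0.0361). The log2 gap of Calb2, mutant minus wild type, was 0.12 at 48 h, where the groups overlapped, and -0.62 at 0 h, where they did not. Syn2 did not pass in 11 of the 22 alternative fits. These 3 were the called members of the synaptic vesicle release list, 3 of 17 tested against 1.72% of all genes. That list fell in 4 cases in mutant-labelled and 10 in wild-type-labelled arrays, with median changes of -0.09 and -0.52.

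Several transporters and enzymes were level or rose in mutant-labelled arrays and fell in wild-type-labelled arrays. Slc22a2, an organic cation transporter, gave 2052, 2837 and 1403 in mutant-labelled arrays at 48 h and 1587, 2022 and 1388 at 0 h, against 633.6, 1029.9 and 494.8 in wild-type-labelled arrays at 48 h and 2462, 2666 and 3193 at 0 h, with a difference of 2.30 ± 0.51 (adjusted p = 0.014). Car4, a membrane-bound carbonic anhydrase, gave 1255, 1544 and 947.6 in mutant-labelled arrays at 48 h and 921.3, 1075 and 803.8 at 0 h, against 432.7, 627.2 and 321.3 in wild-type-labelled arrays at 48 h and 1341, 1370.3 and 1376 at 0 h, with a difference of 2.02 ± 0.36 (adjusted p = 0.00252). Its other probe set gave -0.09, so the 2 probe sets of Car4 disagree. Cox8b, a subunit of cytochrome oxidase found in muscle and brown fat, gave 7023, 8741 and 5126 in mutant-labelled arrays at 48 h and 4482, 7916 and 5044 at 0 h, against 1433, 2741 and 1175 in wild-type-labelled arrays at 48 h and 3969, 5793 and 5903 at 0 h. It differed by 1.90 ± 0.38 (adjusted p = 0.00802), and by 1.59 on its other probe set (adjusted p = 0.0158).

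Cyp3a13, a cytochrome P450 of drug metabolism, gave 6675, 6464 and 6407 in mutant-labelled arrays at 48 h and 3699.9, 4278 and 3122 at 0 h, against 1765, 3812 and 1558 in wild-type-labelled arrays at 48 h and 3792, 3639 and 3738 at 0 h. It rose by 0.83 in mutant-labelled arrays and fell by 0.77 in wild-type-labelled arrays, where replicate 2 at 48 h stayed at the 0 h level, and it differed by 1.59 ± 0.34 (adjusted p = 0.0111). Rgr, an opsin that binds retinal, gave 1757, 1576 and 1667 in mutant-labelled arrays at 48 h and 1038, 1174 and 899.5 at 0 h, against 489.0, 810.4 and 539.6 in wild-type-labelled arrays at 48 h and 987.1, 1135 and 1030.0 at 0 h, with a difference of 1.50 ± 0.33 (adjusted p = 0.014). Gpd1, a glycerol phosphate dehydrogenase, and Azgp1, a secreted zinc-binding glycoprotein, rose by 1.01 and 1.09 in mutant-labelled arrays and differed by 1.28 ± 0.35 (adjusted p = 0.0419) and 1.35 ± 0.37 (adjusted p = 0.0424). Their log2 gaps, mutant minus wild type, were 0.66 and 0.70 at 48 h, where the groups overlapped. At 0 h the gaps were -0.61 and -0.66, without overlap. Folr2, a folate receptor of some macrophages, fell by 1.06 in wild-type-labelled arrays and differed by 1.33 ± 0.34 (adjusted p = 0.029). Serpina1b, an antitrypsin whose near-identical copies its probes may also match, differed by 2.31 ± 0.50 (adjusted p = 0.0128). It gave 439.8, 616.6 and 398.8 in mutant-labelled arrays at 48 h and 404.3, 282.8 and 319.4 at 0 h. Wild-type-labelled arrays gave 74.4, 418.3 and 162.2 at 48 h and 1278.4, 513.6 and 487.7 at 0 h. The genotypes thus overlapped at 48 h and were apart at 0 h, with mutant-labelled arrays lower. Gpd1, Azgp1 and Folr2 lay close to the threshold and did not pass in 13, 14 and 10 of the 22 alternative fits.

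Sustentacular and xenobiotic enzymes, which detoxify inhaled compounds, were higher in 3 of 22 cases, against 1.72% of all genes. They were Cyp2e1 at 1.13 ± 0.30 (adjusted p = 0.0385), Fmo1 at 0.63 ± 0.17 (adjusted p = 0.0424) and Gstm2 at 0.52 ± 0.14 (adjusted p = 0.0424), and they did not pass in 11, 14 and 15 of the 22 alternative fits. In mutant-labelled arrays 5 of the 22 rose, and in wild-type-labelled arrays 2 rose and 2 fell.

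**Figure D4:**
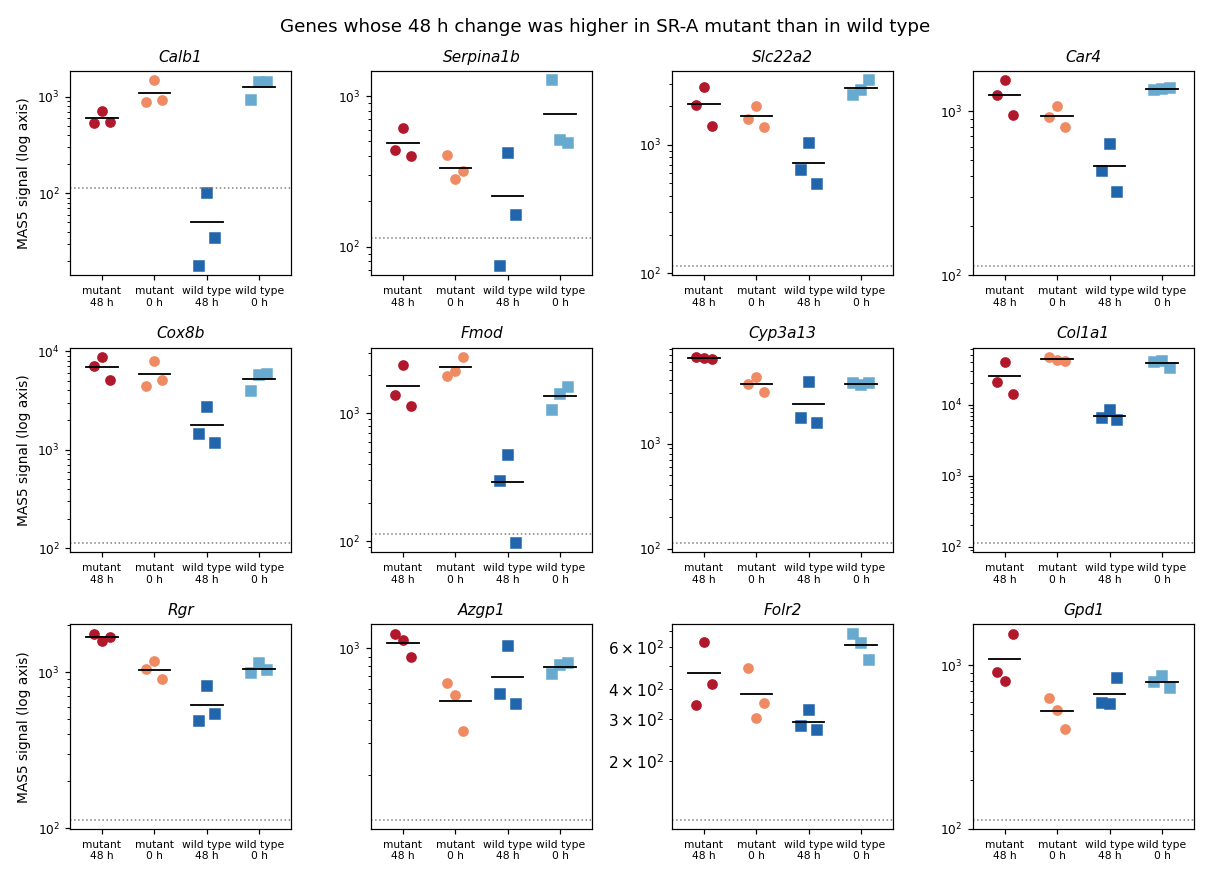
MAS5 signal (log axis) in each array for the 12 genes with the largest positive genotype difference, with bars at group means and the floor of 113.7 dotted. Circles are mutant-labelled arrays at 48 h and 0 h, squares wild-type-labelled arrays at 48 h and 0 h. The wild-type-labelled 48 h arrays are the low group in most panels, and replicate 2 is the highest of the 3 in all of them except Gpd1.

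Extracellular matrix genes fell in both genotypes, in 12 of 34 cases in mutant-labelled and 19 in wild-type-labelled arrays, against 6.76% and 9.03% of all genes. The median changes were -0.43 and -0.66. By genotype difference 2 were higher and 2 lower, against 1.72% and 2.52% of all genes. Col1a1, the main collagen of bone and connective tissue, gave 20576, 40391 and 14281 in mutant-labelled arrays at 48 h and 46939, 42043 and 40942 at 0 h, against 6480.1, 8493 and 6126 in wild-type-labelled arrays at 48 h and 39979, 41513 and 32640.3 at 0 h. It fell by 0.92 in mutant-labelled and 2.44 in wild-type-labelled arrays, a difference of 1.52 ± 0.37 (adjusted p = 0.0239), while its other probe set gave 0.41 (adjusted p = 0.347). Its partner chain Col1a2 fell by 1.37 and 2.45, and its difference of 1.07 ± 0.32 (adjusted p = 0.0612) did not pass. Fmod, a collagen-binding proteoglycan, gave 1386, 2414 and 1154 in mutant-labelled arrays at 48 h and 1978, 2169 and 2774 at 0 h, against 293.4, 475.7 and 96.8 in wild-type-labelled arrays at 48 h and 1057, 1419.6 and 1619.7 at 0 h, with a difference of 1.88 ± 0.52 (adjusted p = 0.0421) that did not pass in 10 of the 22 alternative fits. Lox and the calcification inhibitor Mgp were lower, Mgp at -1.07 ± 0.27 (adjusted p = 0.029). Bone and osteoclast markers fell in 5 of 10 cases in mutant-labelled and 4 in wild-type-labelled arrays, and their part in the collagen result was not tested.

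Genes of mature olfactory sensory neurons fell in both genotypes. Of 11 tested, 7 fell in mutant-labelled and 8 in wild-type-labelled arrays, with median changes of -0.60 and -0.55. Omp fell by 0.60 in mutant-labelled and 0.78 in wild-type-labelled arrays, and its difference of 0.17 ± 0.15 (adjusted p = 0.558) did not pass. Adcy3, the adenylyl cyclase of odorant transduction, fell by 0.80 and 1.06, with a difference of 0.26 ± 0.19 (adjusted p = 0.473) that did not pass either. The called member was Gnb1, a widely used G protein subunit, at -1.44 ± 0.35 (adjusted p = 0.0249). Its other probe sets gave -0.997 and -0.53, of which the first passed. The brightest probe set of Gnb1 changed by -0.15 in mutant-labelled arrays and rose by 1.29 in wild-type-labelled arrays. Its log2 gap, mutant minus wild type, was -0.02 at 48 h and 1.42 at 0 h, so the genotypes were apart at 0 h. The other probe set that passed instead fell in mutant-labelled arrays (adjusted p = 3.18e-06) and was level in wild-type-labelled arrays, at -0.004. These 2 probe sets thus shared the sign of the difference but not the changes behind it. The brightest one did not pass in 8 of the 22 alternative fits. Gap43, the growth cone protein of immature neurons, differed by 0.38 ± 0.31 (adjusted p = 0.521).

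Several other lists changed with time in both genotypes and held few or no called differences. Heat shock chaperones fell in 10 of 19 cases in mutant-labelled and 11 in wild-type-labelled arrays, and limma called 0 differences, with 2 at an unadjusted p under 0.05. Lysosomal genes rose in 11 of 36 cases in mutant-labelled arrays, where 2 fell, and in 12 in wild-type-labelled arrays, where 4 fell. In that list 1 was higher and 1 lower by genotype difference, against 1.72% and 2.52% of all genes. These were the protease Tpp1 at 0.61 ± 0.15 (adjusted p = 0.0261) and the cathepsin Ctsh at -0.91 ± 0.21 (adjusted p = 0.0158). Ctsl rose by 0.87 in mutant-labelled and 0.97 in wild-type-labelled arrays. Complement genes rose in 5 of 10 cases in mutant-labelled and 4 in wild-type-labelled arrays, with 0 differences called and 2 at an unadjusted p under 0.05. At that unadjusted p 19.6% of all genes passed. Cell cycle genes, unlike the lists above, did not change with time in both genotypes. Of 19 tested, 0 rose or fell in mutant-labelled arrays, and 3 fell in wild-type-labelled arrays. For the difference 0 were called and 3 had an unadjusted p under 0.05.

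**Figure D5:**
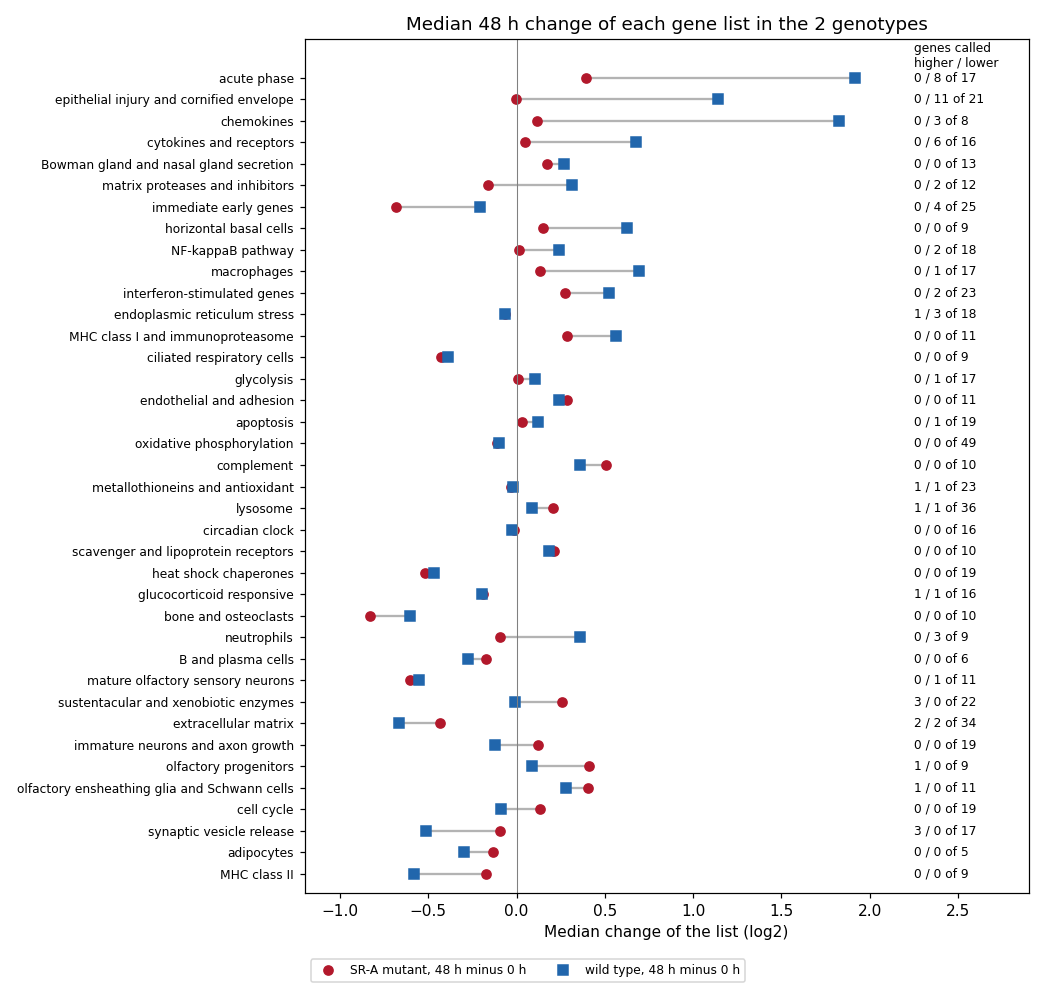
Median change between 0 h and 48 h of each gene list with at least 5 genes tested, in mutant-labelled arrays (red circles) and wild-type-labelled arrays (blue squares), in log2 units. The numbers at the right give the genes called higher and lower for the genotype difference, of those tested. The acute phase, epithelial injury and chemokine lists show the widest spacing, with the mutant-labelled median nearer 0, and the mature sensory neuron and heat shock lists show almost none.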

How the data were processed

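The deposited values are linear signal intensity units from Affymetrix MG-U74Av2 arrays, 1 per probe set and array, made by the authors with MAS5, per the submitters' processing notes, which give no version. The 30 arrays had a 2% trimmed mean near 1501, so they had been scaled alike. Detection calls were not used.

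The array has 12488 probe sets, 66 of them controls. Signals were floored at 113.7, the 25th percentile of all signals, and taken to log2. The test took the 6968 probe sets with a signal above 572, the pooled median, in 3 or more of the 30 arrays and omitted 5454. GEO's platform annotation gave 10833 probe sets 1 gene, 396 several and 1193 none, and 10817 matched RefSeq by gene identifier. Tested ones with 1 gene numbered 6320, for 5396 genes, each shown by its brightest probe set over the 12 arrays.

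Means of 9 groups (27 arrays, 18 residual degrees of freedom) were fitted with limma 3.58.1 (R 4.3.3), without the mutant-labelled 2 h arrays, whose RNA controls stood apart. Fold values come from the floored log2 means. Other steps used Python 3.11.15, numpy 2.4.6, pandas 2.3.3 and matplotlib 3.10.9, and the fit was tested on simulated data. Motifs were searched in RefSeq promoter sequences of GRCm38.p6.

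The comparison and the gene lists were chosen with earlier results of these data known. Genes were named by rule: the 12 largest called differences each way, up to 3 called members of each list (else the 2 of smallest p), plus Omp, Msr1, Cd68 and Gap43. Lcn2, Slpi, Serpina3n, Nr4a1, Cebpb, Adcy3, Hspa1b, Col1a2, Ctsl, Lilr4b, Cd53, Ccl9, Camp, Ngp, Ltf, Csf3r, Dnajb11 and further called list members were named after their values were seen. Alternatives were 2 other filters, a pseudocount of 16, a floor at the 10th percentile, a replicate block, quantile normalization, robust moderation with a variance trend, only the groups compared, all 30 arrays, array weights, and each array left out in turn. The main fit did not pair arrays by replicate number. Deviations of same-numbered arrays correlated at a median r of 0.04 (-0.28 to 0.35), and of others at -0.02 (-0.32 to 0.33). These medians cannot show that pairing was absent.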

Additional observations from a re-analysis of the deposited data

Results flagged for a closer look

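A 48 h change that differed between the genotypes by the test of the difference itself brought 291 probe sets here. Among the genes, 17 also passed for their own 48 h change in both genotypes, in opposite directions. Of these, 13 fell in mutant-labelled and rose in wild-type-labelled arrays. The genotype differences, on the log2 scale, were -2.95 for Dio2 and -2.81 for Plaur, and -1.63 for the epithelial membrane gene Emp1. Next were the secreted Wnt modulator Sfrp4 at -1.53, the collagen crosslinker Lox at -1.52, Cebpb at -1.23 and the acyl-CoA thioesterase Acot9 at -1.05. Smaller ones were -0.84 for Pdia3, -0.83 for the homeobox gene Tgif1, -0.80 for Dcun1d5, -0.72 for Dnajb11, -0.68 for Hspa5 and -0.65 for the actin-bundling Pls3. The other 4 rose in mutant-labelled and fell in wild-type-labelled arrays. Their differences were 0.83 for Zp2, 0.86 for Nat8f1, 0.92 for the potassium channel Kcnq1 and 1.59 for Cyp3a13. Chance alone would bring some of the 291 past an adjusted threshold, and the 17 were counted after the calls were made.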

How the results depend on the processing

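The number of probe sets called for the genotype difference was 291, and 8 other settings kept it within 1.5 times, between 199 with all 30 arrays and 330 with quantile normalization. A fit of only the 12 arrays compared, with fewer residual degrees of freedom, called 77. Replicate number as a block gave 249 calls, of which 244 were shared with the 291. Leaving out each array in turn gave 131 to 410. For mutant-labelled 48 h against 0 h, 923 were called, 204 in the fit of only the groups compared, 584 with array weights and 545 to 1163 with 1 array left out, where 0 h replicates 1 and 2 gave 571 and 569 and 48 h replicate 3 gave 545. For wild-type-labelled arrays 1313 were called, and 830 without 48 h replicate 1 to 1186 without 48 h replicate 3. Of 59 named genes called, 22 passed under all 22 alternatives, among them Cxcl2, Cxcl1, Ccl2, Saa3, Orm1, Il1b, Krt6a, Plaur, Cebpb, Fos, Egr1 and Calb1, and none of the 59 changed sign. The 22 include Mmp3 and Il1rn, which among the arrays of the fit exceeded the filter signal only in wild-type-labelled arrays at 48 h. They also include Saa3, Orm1 and Ccl2, which reached 3 arrays above that signal in the fit only with the wild-type-labelled 48 h arrays. Genes near the threshold lost their call most often, such as Gstm2 in 15 alternatives. Only uncalled genes changed sign: with 1 array left out Serpina3n ranged from -0.020 to 0.329, Hspa1b from -0.686 to 0.031 and Ctsl from -0.232 to 0.020, and Hspa1b gave 0.238 with array weights. The cause of these moves was not tested. Quantile normalization shifted the median over all probe sets by 0.01 or less. Signals at the floor limit dim genes, since their changes are bounds.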

Other observations

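A probe set with no gene name in the platform annotation was high in 1 group only. It gave 76.4, 107.6 and 85.5 in mutant-labelled arrays at 48 h and 80.3, 87.7 and 80.7 at 0 h, against 1241.5, 1549.5 and 679.8 in wild-type-labelled arrays at 48 h and 131.9, 103.1 and 126.3 at 0 h. It was chosen after its values were seen, for the smallest p in the fit. Only the wild-type-labelled 48 h arrays took it past the filter, and all 6 mutant-labelled arrays were set to the same floor, which removes their spread, so no p is given.

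Markers of B and plasma cells, mostly immunoglobulin chains, set the genotypes apart at both times. The summed signal of 14 such genes was 13414 to 22546 in mutant-labelled arrays at 48 h and 15252 to 28543 at 0 h, against 3105 to 3760 in wild-type-labelled arrays at 48 h and 3168 to 4050 at 0 h. The genotypes did not overlap, while the 2 times overlapped within each. Of the 6 genes tested, limma called 0 for the difference in change, and 1 had an unadjusted p under 0.05, against 4.24% and 19.6% of all genes. Among them the plasma cell and epithelial proteoglycan Sdc1 differed by -0.95 ± 0.28 (adjusted p = 0.0612).

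In the glucocorticoid responsive list 1 of 16 tested genes was higher and 1, Cebpd, was lower, against 1.72% and 2.52% of all genes. Fkbp5, a co-chaperone induced by glucocorticoids, differed by 1.01 ± 0.28 (adjusted p = 0.0424), with a rise of 0.76 in mutant-labelled arrays. Its log2 gap, mutant minus wild type, was 0.06 at 48 h and -0.94 at 0 h, so the genotypes were further apart at 0 h. Npy, a neuropeptide expressed by olfactory ensheathing glia, differed by 0.99 ± 0.28 (adjusted p = 0.0427). Fkbp5 and Npy did not pass in 13 and 12 of the 22 alternative fits. Of 9 MHC class II genes tested, 2 rose and 1 fell in mutant-labelled arrays, and 2 rose and 5 fell in wild-type-labelled arrays. Their median changes were -0.17 and -0.58. For the difference 0 of the 9 were called by limma, and 3 had an unadjusted p under 0.05, against 4.24% and 19.6% of all genes. The median difference of these 9 was 0.60.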
